A study of Xenopus tropicalis with 31 samples.

Results

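The genes meis1, meis2, meis3, pbx2 and pbx3 encode homeodomain transcription factors of the TALE class. Their chromatin accessibility was described from the ATAC-Seq windows for which one of these 5 genes had the nearest transcription start site (TSS) in the authors' annotation. This gave 62 windows of 400 bp out of 124349 in the whole data set, with 21 at meis1, 23 at meis2, 3 at meis3, 4 at pbx2 and 11 at pbx3. The windows were taken by gene name and not by any measured value, but the genes were chosen with earlier results of these data known.

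All samples came from tails of Xenopus tropicalis tadpoles that carried pax6:GFP together with cryga:RFP and actc1:RFP (a line of the Xtr.Tg series), in which the pax6 promoter drives GFP, and amputations were made at stage 41. The pax6 samples held sorted GFP+ cells and the all-tissue samples held the GFP+ and GFP- cells of a tail collected together, so pax6 cells are also part of the all-tissue samples. Both tissues were sampled in uninjured tails and at 0, 6, 24 and 72 hours post amputation (hpa) of the posterior part of the tail. There were 2 pax6 samples in uninjured tails, 2 at 0 hpa and 3 at each of 6, 24 and 72 hpa. There were 2 all-tissue samples at 0 hpa and 3 at each other timepoint, so that 13 pax6 and 14 all-tissue samples were compared in 10 groups. Each dissociation pooled about 60 tails, and the labels do not say whether replicates were separate clutches, so p-values measure the spread between these samples, which may be technical. The headers of the all-tissue columns carry the letters WT, whereas the labels give the transgenic genotype for them.

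Meis and Pbx proteins bind DNA together as heterodimers and act as partners of Hox proteins, whose choice of binding site and activity they change. Pbx proteins enter and stay in the nucleus through their contact with Meis proteins. In Xenopus embryos, Meis factors are known for posterior neural, hindbrain and neural crest fates, and Meis factors also mark proximal identity in regenerating limbs of salamanders. ATAC-Seq measures how readily a transposase cuts a stretch of chromatin, so an open window may be a promoter or a distal regulatory element, and the assay does not measure transcription of the gene.

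The depth, as the total count over all windows, had a median of 5962615 in pax6 samples (lowest 3069659, highest 12130125). For all-tissue samples the median was 7014782.5 (lowest 4401013, highest 13256076). Counts in the member windows ran from 2 to 447 in single samples, with a median of 28, so that single windows rest on few fragments. The samples with the lowest median correlation with the others over the windows were pax6 uninjured replicate 2 (r = 0.811) and pax6 72hpa replicate 3 (r = 0.814), against 0.863 to 0.925 for the other 25. Of 6 lists of cell type markers, 2 held a gene whose summed accessibility differed between the tissues in edgeR's test. These were pax6 itself, 1 of 6 neural progenitor genes with windows (log2 fold change 0.23, adjusted p = 0.002565), and actc1, 1 of 7 muscle genes (0.77, adjusted p = 2.25e-09), whose promoter is also in the transgene. No sum of the neuron, epidermis, notochord, or blood and vessel lists was called, although 1 of 84 neuron windows was higher and 2 of 40 epidermis windows were lower in pax6 samples. The genes hes5, des, krt5 and tbxt were not matched, and the summed level of each of the 6 lists overlapped between the tissues. In such bulk samples, a smaller share of cells with an open window cannot be told apart from less open chromatin in each cell.

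The first question was where the windows lie. The TSS of meis1 lies on chromosome 5 at position 30043942 of genome version 9.0, and those of pbx3 (9928702), pbx2 (54379854), meis3 (58917012) and meis2 (90888298) all lie on chromosome 8. The meis1 windows spread over 213584 bp and the meis2 windows over 294928 bp, and 97.39% and 97.96% of 23175 genes had fewer windows than these. The median gene had 3 windows, as did meis3. Most member windows were distal: 37 of 62 (59.7%) lay more than 50000 bp from the TSS, against 23% of the 117398 windows with an annotated gene. The median distance was 74588 bp against 16530.5 bp. Of the 37, 14 were at meis1, 17 at meis2 and 6 at pbx3, with 0 at meis3 and 0 at pbx2. At meis1, 18 windows lay upstream and 3 downstream, and at meis2 12 lay upstream and 11 downstream. Only pbx2 (54379725 to 54380124) and pbx3 (9928489 to 9928888) had a window that held the TSS itself. The nearest window lay 630 bp upstream at meis1 (chromosome 5, 30042912 to 30043311), 1058 bp upstream at meis2 (chromosome 8, 90886840 to 90887239) and 365 bp downstream at meis3 (chromosome 8, 58917378 to 58917777). Windows 102614 and 102924 bp downstream of meis2 overlapped their neighbours by 15 and 90 bp and share some fragments. A distal window is assigned to a gene by distance alone, and exons and introns were not analysed here.

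**Figure D1:**
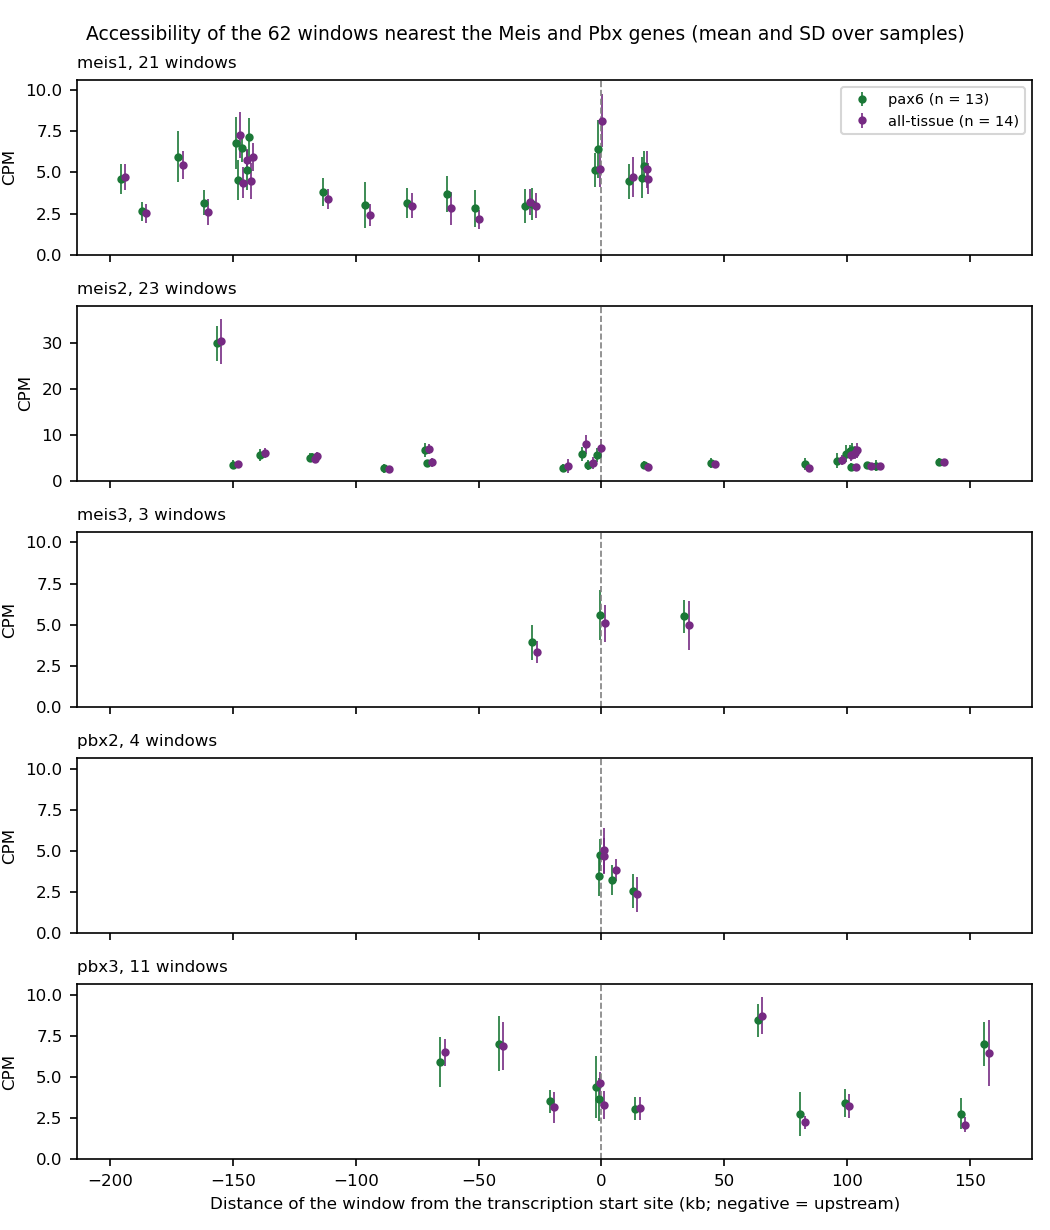
Accessibility of the 62 windows against their distance from the TSS of meis1, meis2, meis3, pbx2 and pbx3. The y axis gives CPM, the count scaled to library size, with a taller axis for meis2. Points, set slightly apart sideways, are means and bars the SD over 13 pax6 (green) and 14 all-tissue (purple) samples, and the dashed line marks the TSS. The meis2 window 155764 bp upstream, at 30.2 CPM over all samples, stands above all others, which lie between 2.42 and 8.58 CPM.

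The members were mostly windows of ordinary height. Their mean accessibility over the 27 samples had a median of 4.27 CPM (the count scaled to a common library size after TMM normalisation), which put the median member at the 39.9th percentile of all windows tested. Only 1 of 62 reached the top 10%. That window lay 155764 bp upstream of meis2 (chromosome 8, 90732134 to 90732533) and measured 30.2 CPM, at the 97.2nd percentile, with a merged-peak summit score of 51.9, the −log10 of the q-value. The highest windows of the other genes were the 630 bp upstream window of meis1 (7.32 CPM), the 365 bp downstream window of meis3 (5.31), a window 200 bp downstream of pbx2 (4.89; chromosome 8, 54379254 to 54379653) and a window 64561 bp downstream of pbx3 (8.58; chromosome 8, 9863741 to 9864140). Both windows that held a TSS were lower, with 4.11 CPM at pbx2 and 3.46 at pbx3. By distance, the 9 windows within 5000 bp had a median of 4.89 CPM, the 16 from 5000 to 50000 bp 3.57 CPM and the 37 beyond it 4.43 CPM.

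The main question was whether these windows differ between pax6 and all-tissue cells. With all timepoints together, no member window passed an adjusted p of 0.05 in edgeR's quasi-likelihood test, against 1.52% of all 124342 windows tested. At an unadjusted p under 0.05 there were 8 of 62 (12.9%), against 14.5% of all windows, so the members' share was near the background. DESeq2 also called 0 of 62, with 8 at an unadjusted p under 0.05. Its own share over all windows is not given here. The values of every one of the 62 windows overlapped between the 13 pax6 and the 14 all-tissue samples. Of all 124342 windows tested, only 44 did not overlap, so such overlap does not set the members apart. The fold changes ran from −0.42 to 0.41 on the log2 scale with a median of 0.03, against a median of 0.00 over all windows. The 95% confidence intervals of 49 windows lay within ±0.5 and those of all 62 within ±1 on the log2 scale, the lowest bound being −0.71 and the highest 0.74.

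The direction of the difference was counted by distance from the TSS, with no test between the distance classes. Member windows beyond 50000 bp came only from meis1, meis2 and pbx3, so distance and gene are not separated. Of the 9 member windows within 5000 bp of a TSS, 7 (77.8%) had a fold change below 0, with a median of −0.10. Of the 16 from 5000 to 50000 bp, 6 (37.5%) did, with a median of 0.03, and of the 37 beyond 50000 bp, 11 (29.7%) did, with a median of 0.07. Over all annotated windows the same shares were 62.4% within 5000 bp (median −0.05) and 42.8% beyond 50000 bp (median 0.03), the same order as among the members. The share of a sample's counts in windows within 500 bp of a TSS moved the same way, with a median of 8.17% (6.91% to 8.80%) in pax6 and of 8.91% (7.05% to 10.2%) in all-tissue samples. Its part in the differences of single windows was not tested.

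**Figure D2:**
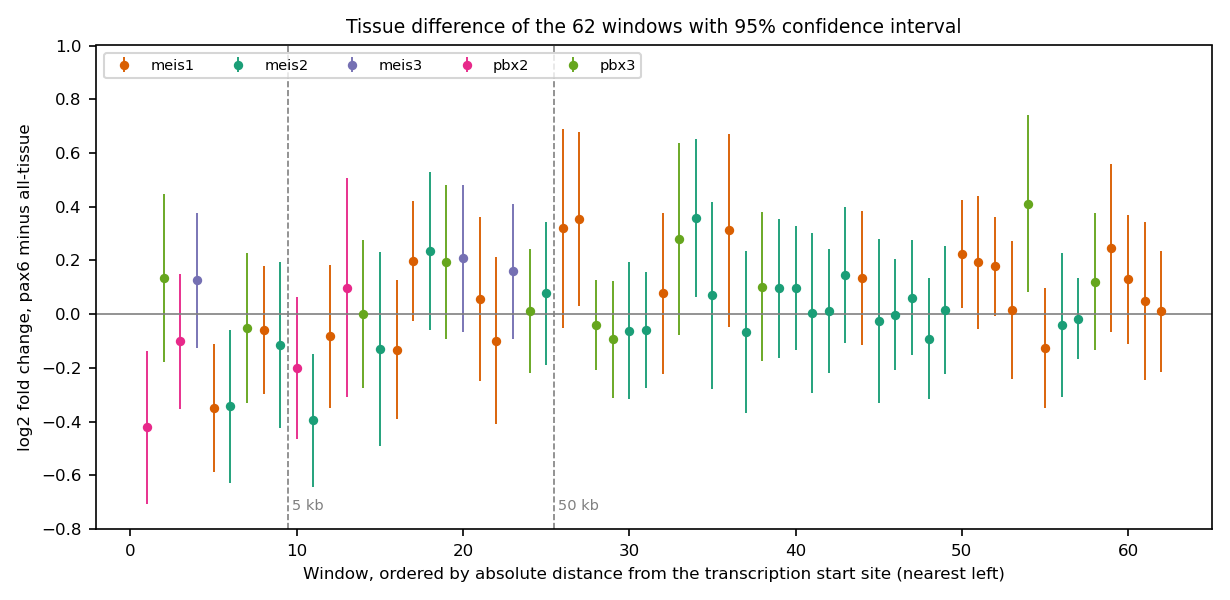
Log2 fold change of pax6 minus all-tissue samples for each of the 62 windows, with its 95% confidence interval, ordered by absolute distance from the TSS and coloured by gene. Dashed lines mark 5 kb and 50 kb. The estimates run from −0.42 to 0.41, none passed the adjusted threshold, and 7 of the 9 windows left of the 5 kb line lie below 0.

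The smallest p was that of a window 7047 bp upstream of meis2 (chromosome 8, 90880851 to 90881250). Its lowest, median and highest values were 3.33, 6.23 and 8.50 CPM in pax6 samples and 4.95, 7.24 and 12.5 CPM in all-tissue samples. The lowest pax6 value was that of uninjured replicate 2 and the highest all-tissue value that of 24hpa replicate 3, and the ranges overlapped. The log2 fold change was −0.40 (95% confidence interval −0.64 to −0.15) with an adjusted p of 0.087. The window that held the pbx2 TSS had 1.58, 3.38 and 6.10 CPM in pax6 and 2.23, 4.77 and 6.98 CPM in all-tissue samples, a log2 fold change of −0.42 (−0.71 to −0.14) with an adjusted p of 0.12. The window 630 bp upstream of meis1 had 1.79, 6.52 and 8.90 CPM in pax6 and 4.38, 8.31 and 10.03 CPM in all-tissue samples, a log2 fold change of −0.35 (−0.59 to −0.11) with an adjusted p of 0.124. The lowest of these values came from pax6 72hpa replicate 3 at pbx2 and from pax6 uninjured replicate 2 at meis1, the samples that stood apart, and without both the fold changes were −0.34 at pbx2 and −0.33 at meis1 (adjusted p = 0.2094 and 0.09318). The meis1 window passed the threshold with the smaller set of 23 libraries (−0.44, adjusted p = 0.0052). That set lacks both samples that stood apart and counts both libraries of all-tissue 72hpa replicate 1 as separate samples. The same meis1 window and the meis2 window 7047 bp upstream passed the threshold without all-tissue 0hpa replicate 1 alone (adjusted p = 0.0439 and 0.0388). The 2 settings that called the meis1 window thus share the loss of this sample. How many of all windows passed in them is not given here. The nearest meis2 window, 1058 bp upstream, was of like size (−0.34, −0.63 to −0.06, adjusted p = 0.228). The meis3 window nearest its TSS gave 0.13 (−0.12 to 0.38) and the pbx3 window 0.14 (−0.18 to 0.45), both with intervals that span 0. Single samples moved these values, to 0.0558 at meis3 without pax6 0hpa replicate 3 and 0.0599 without pax6 72hpa replicate 3. At pbx3 they moved to 0.078 without pax6 6hpa replicate 1, 0.0809 without pax6 72hpa replicate 3 and 0.213 without all-tissue uninjured replicate 3.

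Higher values in pax6 samples were found in 4 distal windows among the 8 at an unadjusted p under 0.05. The first 3 given here were picked out after their values were seen. The window 147183 bp downstream of pbx3 gave a log2 fold change of 0.41 (0.08 to 0.74, adjusted p = 0.2054). It was the lowest member window, at 2.42 CPM over all samples, with 2 counts in pax6 0hpa replicate 2. The window 83634 bp downstream of meis2 gave 0.36 (0.07 to 0.65, adjusted p = 0.2179). Its highest pax6 value, 7.12 CPM against a pax6 median of 3.20 CPM, was that of 72hpa replicate 3, which stood apart. The window 62153 bp upstream of meis1 gave 0.35 (0.03 to 0.68, adjusted p = 0.2841). The fourth lay 142530 bp upstream of meis1 (0.23, 0.02 to 0.43, adjusted p = 0.271), where pax6 samples ran from 5.45 to 9.08 CPM and all-tissue samples from 4.09 to 7.07. The most accessible window, 155764 bp upstream of meis2, averaged 30.0 ± 3.79 CPM over the 13 pax6 samples (SD) and 30.4 ± 4.88 CPM over the 14 all-tissue samples (SD). Its log2 fold change was −0.02 (−0.17 to 0.13), with a sign that depended on the samples kept. The most accessible pbx3 window gave −0.04 (−0.21 to 0.13), and the most accessible pbx2 window −0.10 (−0.35 to 0.15).

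By gene, 15 of 21 meis1, 8 of 11 pbx3, 3 of 3 meis3, 11 of 23 meis2 and 1 of 4 pbx2 windows had a fold change above 0. Over the 5 genes this was 38 of 62 (61.3%), against 50.2% of all windows. The 2 shares are not matched for distance, since 59.7% of members but 23% of annotated windows lay beyond 50000 bp. Over all annotated windows 42.8% were below 0 beyond 50000 bp, against 62.4% within 5000 bp. The median was 0.08 for meis1, 0.10 for pbx3, 0.16 for meis3, −0.0016 for meis2 and −0.15 for pbx2.

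The tissues were next compared within each timepoint, in a fit of all 10 groups with a shared estimate of the spread. No member window was called at any of the 5 timepoints, where 0.0137% of all windows were called in uninjured tails, 0.00724% at 0 hpa, 0.0844% at 6 hpa, 0.041% at 24 hpa and 0.363% at 72 hpa. At an unadjusted p under 0.05 there were 2 member windows in uninjured tails (3.23%, against 7.3% of all windows), 3 at 0 hpa (4.84% against 5.74%), 1 at 6 hpa (1.61% against 9.13%), 6 at 24 hpa (9.68% against 6.99%) and 4 at 72 hpa (6.45% against 11.3%). DESeq2 was not run for these contrasts. With 2 or 3 samples in a group, values can fail to overlap by chance. The share of all windows without overlap at a single timepoint is not given here.

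In uninjured tails the smallest p belonged to the window at the pbx3 TSS. It measured 2.46 and 0.768 CPM in the 2 pax6 samples and 3.55, 2.43 and 5.49 CPM in the 3 all-tissue samples. The lower pax6 value came from replicate 2, one of the 2 samples that stood apart, and the other pax6 value lay just above the lowest all-tissue value. The log2 fold change was −1.03 (−1.78 to −0.28) with an adjusted p of 0.486. Without that replicate it was −0.68 (adjusted p = 0.9999), and with it as the lone pax6 sample, without replicate 1, −2.33 (adjusted p = 0.0869). Without all-tissue uninjured replicate 3 it was −0.69 (adjusted p = 0.905). At 0 hpa the meis3 window 365 bp downstream had 6.52 and 7.72 CPM in pax6 against 3.81 and 4.84 CPM in all-tissue samples, which did not overlap, with a log2 fold change of 0.73 (0.18 to 1.29) and an adjusted p of 0.771. At 6 hpa the meis1 window 142530 bp upstream had 7.03, 9.08 and 8.63 CPM in pax6 against 7.07, 6.84 and 4.09 CPM in all-tissue samples (0.45, 0.03 to 0.88, adjusted p = 0.51), and the lowest pax6 value lay just under the highest all-tissue value. Without all-tissue 6hpa replicate 3 it was 0.24 (adjusted p = 0.8605). At 24 hpa the pbx2 window at the TSS had 4.80, 3.61 and 2.49 CPM in pax6 against 5.45, 5.10 and 6.98 CPM in all-tissue samples, without overlap (−0.69, −1.26 to −0.12, adjusted p = 0.564).

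At 72 hpa, the timepoint with the most calls over all windows, the smallest p among the members belonged to a window 95273 bp upstream of meis1 (chromosome 5, 29948269 to 29948668). It measured 2.91, 3.91 and 6.72 CPM in pax6 and 1.89, 1.81 and 2.51 CPM in all-tissue samples. All pax6 values lay above all all-tissue values, and the highest was that of replicate 3, the other sample that stood apart. The log2 fold change was 1.11 (0.46 to 1.75) with an adjusted p of 0.106. Without replicate 3 it was 0.75 (adjusted p = 0.476). This window was a low one, at 2.72 CPM over all samples, with 5.42% of all windows tested below it.

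**Figure D3:**
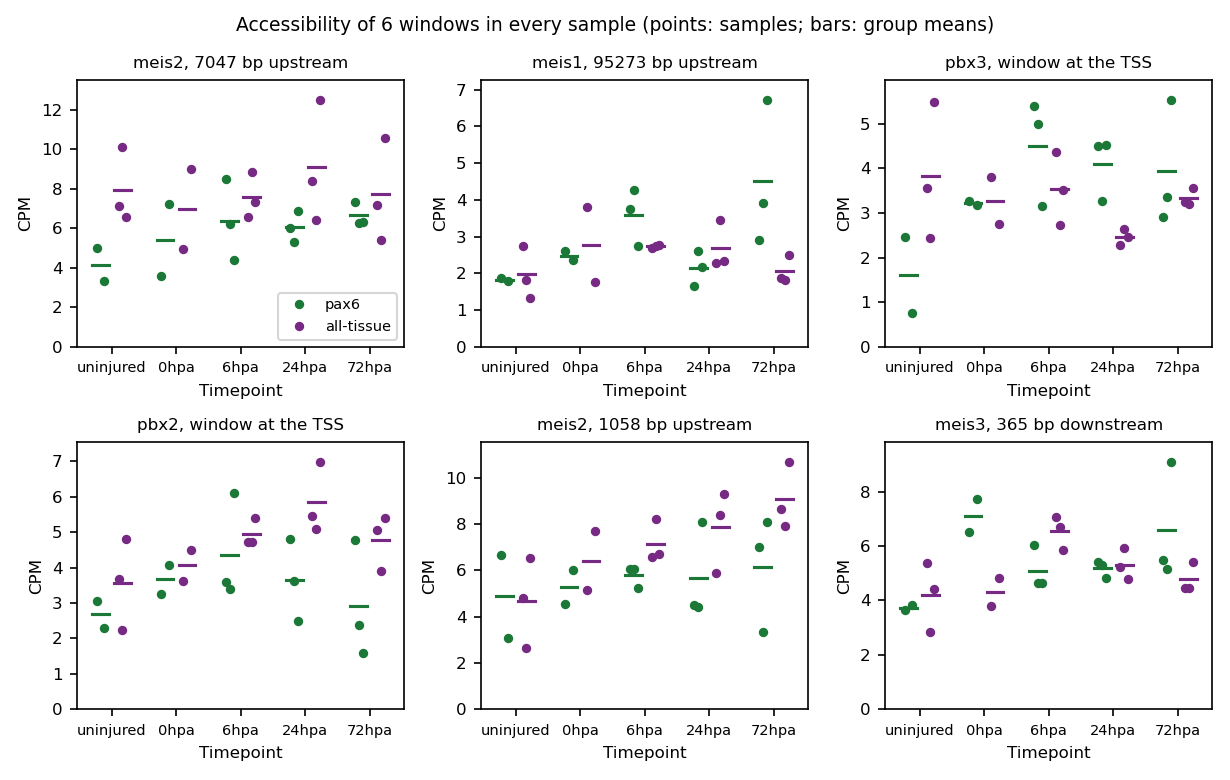
Accessibility (CPM, y axis) of 6 windows in every sample, by timepoint. Points are samples, bars are group means, pax6 is green and all-tissue purple. At 72 hpa the meis1 window 95273 bp upstream runs from 2.91 to 6.72 CPM in pax6 and from 1.81 to 2.51 CPM in all-tissue. This difference did not pass the adjusted threshold. The window at the pbx3 TSS has 0.768 and 2.46 CPM in uninjured pax6 tails and 3.16 CPM or more at 6 hpa. The contrast between these timepoints was not tested.

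Time was tested first as any difference among the 5 timepoints within a tissue. In pax6 samples no member window was called, against 0.000804% of all windows, and 4 of 62 had an unadjusted p under 0.05 (6.45% against 7.44% of all windows). In all-tissue samples no member window was called, against 0.103% of all windows, and 2 of 62 had an unadjusted p under 0.05 (3.23% against 7.58%). The test of whether the time course differs between the tissues called no member window, against 0.00402% of all windows, with 4 of 62 at an unadjusted p under 0.05 (6.45% against 6.64%). DESeq2, whose shares over all windows are not given here, called 0 member windows in these 3 tests. At an unadjusted p under 0.05 DESeq2 had 3, 1 and 1. It gave no adjusted p for the meis1 window 95273 bp upstream over time in pax6 samples (unadjusted p = 0.008834). The same held for the window at the pbx3 TSS in the test of differing time courses (unadjusted p = 0.02162). DESeq2 could therefore not call either window in these tests.

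The smallest p over time in pax6 samples was again that of the meis1 window 95273 bp upstream (adjusted p = 0.54). Its group means were 1.83 ± 0.053 CPM (SD, n = 2) in uninjured tails, 2.48 ± 0.177 CPM (SD, n = 2) at 0 hpa, 3.59 ± 0.782 CPM (SD, n = 3) at 6 hpa, 2.14 ± 0.475 CPM (SD, n = 3) at 24 hpa and 4.52 ± 1.98 CPM (SD, n = 3) at 72 hpa. Values at 6 and 72 hpa overlapped each other and lay above both uninjured values. In all-tissue samples the smallest p was that of the meis2 window 1058 bp upstream (adjusted p = 0.541), which measured 4.67 ± 1.97 CPM in uninjured tails (SD, n = 3), 6.42 ± 1.80 at 0 hpa (SD, n = 2), 7.17 ± 0.909 at 6 hpa, 7.87 ± 1.76 at 24 hpa and 9.10 ± 1.43 at 72 hpa (SD, n = 3 each). The means were in the order of time, while the 6, 24 and 72 hpa values overlapped.

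For the difference in time course the smallest p was that of the window at the pbx3 TSS (adjusted p = 0.6635). In pax6 samples its mean was 1.61 ± 1.19 CPM in uninjured tails (SD, n = 2), 3.22 ± 0.0637 at 0 hpa (SD, n = 2), 4.51 ± 1.19 at 6 hpa, 4.10 ± 0.712 at 24 hpa and 3.93 ± 1.41 at 72 hpa (SD, n = 3 each). In all-tissue samples it was 3.82 ± 1.55 CPM in uninjured tails, 3.28 ± 0.752 at 0 hpa (n = 2), 3.54 ± 0.819 at 6 hpa, 2.46 ± 0.180 at 24 hpa and 3.34 ± 0.198 at 72 hpa (SD, n = 3 elsewhere). At 24 hpa the 3 pax6 values (4.50, 3.28 and 4.52 CPM) lay above the 3 all-tissue values (2.27, 2.63 and 2.47 CPM), with a log2 fold change of 0.71 (0.06 to 1.35) and an adjusted p of 0.6475, a contrast picked out after its values were seen. The lowest group mean, in uninjured pax6 tails, came from 0.768 CPM in replicate 2, one of the samples that stood apart, and 2.46 CPM in replicate 1. Without all-tissue uninjured replicate 3, edgeR's test of differing time courses gave an unadjusted p of 0.1069, against 0.01427 with all samples. Over the 62 windows the ratio of the highest to the lowest group mean had a median of 1.61.

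The 10 contrasts between timepoints called no member window either. In pax6 samples the share of all windows called was 0.000804% for 0 hpa minus uninjured and 0% for the 4 other contrasts. The members at an unadjusted p under 0.05 were 2 of 62 for 0 hpa minus uninjured (3.23% against 5.34% of all windows), 1 for 6 minus 0 hpa (1.61% against 4.11%), 3 for 24 minus 6 hpa (4.84% against 7.71%), 7 for 72 minus 24 hpa (11.3% against 7.14%) and 5 for 72 hpa minus uninjured (8.06% against 8.55%). In all-tissue samples the share of all windows called was 0% for the first 3 steps, 0.000804% for 72 minus 24 hpa and 0.106% for 72 hpa minus uninjured. The members at an unadjusted p under 0.05 were 1 for 0 hpa minus uninjured (1.61% against 3.7%), 3 for 6 minus 0 hpa (4.84% against 5.44%), 1 for 24 minus 6 hpa (1.61% against 4.38%), 4 for 72 minus 24 hpa (6.45% against 3.99%) and 5 for 72 hpa minus uninjured (8.06% against 8.15%). DESeq2 was not run for these contrasts, which share samples with each other. Lack of overlap between groups of 2 or 3 samples can again arise by chance, and its share over all windows is not given here.

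In pax6 samples the smallest p between uninjured tails and 0 hpa was that of the meis3 window 365 bp downstream, with 3.63 and 3.84 CPM in uninjured tails and 6.52 and 7.72 CPM at 0 hpa (log2 fold change 0.99, 0.40 to 1.57, adjusted p = 0.9175). The same window had the smallest p from 0 to 6 hpa, where it measured 6.05, 4.63 and 4.63 CPM (−0.51, −1.03 to −0.0031, adjusted p = 0.9999). From 6 to 24 hpa it was a window 64756 bp upstream of pbx3 (chromosome 8, 9993459 to 9993858), with 6.54, 6.05 and 3.37 CPM and then 7.65, 8.36 and 7.94 CPM, which did not overlap (0.56, 0.12 to 1.01, adjusted p = 0.524). Without pax6 6hpa replicate 3, the lowest of these, it was 0.34 (adjusted p = 0.879). The 23 libraries, which lack the same sample, also gave 0.34. The meis1 window 95273 bp upstream had the smallest p both for 72 minus 24 hpa (1.02, 0.36 to 1.68, adjusted p = 0.52) and for 72 hpa minus uninjured (1.26, 0.47 to 2.04, adjusted p = 0.352). Without pax6 72hpa replicate 3, which stood apart and had the highest value, 72 minus 24 hpa gave 0.66 (adjusted p = 0.9261).

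In all-tissue samples the smallest p for both of the first steps was that of a meis2 window 96943 bp downstream (chromosome 8, 90985242 to 90985641). It had 6.19, 3.24 and 4.68 CPM in uninjured tails, 2.48 and 3.08 CPM at 0 hpa and 5.05, 6.22 and 5.12 CPM at 6 hpa, a log2 fold change of −0.78 (−1.52 to −0.03, adjusted p = 1) and then of 0.95 (0.21 to 1.69, adjusted p = 0.867). The 0 hpa values lay below all others, and there were only 2 of them. Without all-tissue uninjured replicate 1 the first of these fold changes was −0.51. From 6 to 24 hpa it was a meis2 window 117692 bp upstream (−0.48, −0.95 to −0.02, adjusted p = 1), and from 24 to 72 hpa the pbx2 window 13649 bp downstream, which had 4.32, 2.96 and 2.47 CPM and then 2.34, 0.836 and 1.06 CPM (−1.02, −1.85 to −0.20, adjusted p = 0.9999). Without all-tissue 72hpa replicate 1 that value was −1.72 (adjusted p = 0.9999). For 72 hpa minus uninjured it was the meis2 window 1058 bp upstream, with 4.81, 2.64 and 6.56 CPM in uninjured tails and 8.68, 7.94 and 10.7 CPM at 72 hpa. These did not overlap, and the log2 fold change was 0.90 (0.37 to 1.44) with an adjusted p of 0.174.

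To set the 5 genes side by side, the counts of all windows of a gene were summed. With these sums none of the 5 genes was called in the tissue comparison (2.65% of 23175 genes were called), over time in pax6 samples (0.00431%), over time in all-tissue samples (0.406%) or in the difference of time course (0.00863%). At an unadjusted p under 0.05 there were 2 of 5 in the tissue comparison (against 18.5% of all genes), 1 of 5 over time in pax6 samples (against 8.7%), 0 of 5 over time in all-tissue samples (against 11.2%) and 0 of 5 for the difference of time course (against 8.18%), and DESeq2 was not run on sums. The 2 in the tissue comparison were meis1 and meis3.

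Levels between genes were compared per window, since all windows have the same length. Averaged over a gene's windows, pax6 samples had 5.64 ± 0.363 CPM at meis2, 5.03 ± 0.757 at meis3, 4.74 ± 0.476 at pbx3, 4.56 ± 0.383 at meis1 and 3.53 ± 0.514 at pbx2 (SD, n = 13). All-tissue samples had 5.67 ± 0.421 CPM at meis2, 4.54 ± 0.336 at pbx3, 4.43 ± 0.687 at meis3, 4.30 ± 0.146 at meis1 and 3.94 ± 0.690 at pbx2 (SD, n = 14). The meis2 average includes its one high window. The meis3, pbx3 and meis1 averages lay within the larger SD of each other in both tissues.

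The summed accessibility of meis1 was 95.7 ± 8.04 CPM in pax6 (SD, n = 13; lowest 85.9, median 95.2, highest 109) and 90.3 ± 3.07 CPM in all-tissue samples (SD, n = 14; lowest 85.8, median 90.8, highest 95.7). The log2 fold change was 0.08 (95% confidence interval 0.0034 to 0.15, adjusted p = 0.248). The 6 highest of all 27 sums were pax6 samples, and the ranges overlapped. They included uninjured replicate 2 (102.7 CPM) and 72hpa replicate 3 (96.3 CPM), the samples that stood apart. Without both, the log2 fold change was 0.067 (edgeR's adjusted p = 0.3461). With the 23 libraries the fold change was 0.0383, and summed over windows within 50000 bp of the TSS only it was −0.06. By group the order ran from pax6 6hpa (104 ± 6.98), 0hpa (100.1 ± 6.92) and uninjured (95.3 ± 10.5) to all-tissue 6hpa (91.7 ± 4.41), 0hpa (91.1 ± 0.687) and 24hpa (91.1 ± 4.39), then pax6 24hpa (90.8 ± 3.41) and 72hpa (89.6 ± 5.76), and all-tissue 72hpa (89.1 ± 2.93) and uninjured (88.9 ± 2.08). No neighbours in this order differed by more than the larger of their SDs. Neighbours in a sorted order lie close by construction, so this does not show that the groups are alike, here or for the other genes. The highest and lowest meis1 means were 104 and 88.9 CPM, with a pooled SD of 5.14. The test over time in pax6 samples, where means were higher up to 6 hpa than from 24 hpa, gave an adjusted p of 0.542. Its unadjusted p in edgeR was 0.03545, and 0.6468 for windows within 50000 bp only. Without pax6 6hpa replicate 1, 2 or 3 the unadjusted p was 0.01397, 0.1174 and 0.1411.

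**Figure D4:**
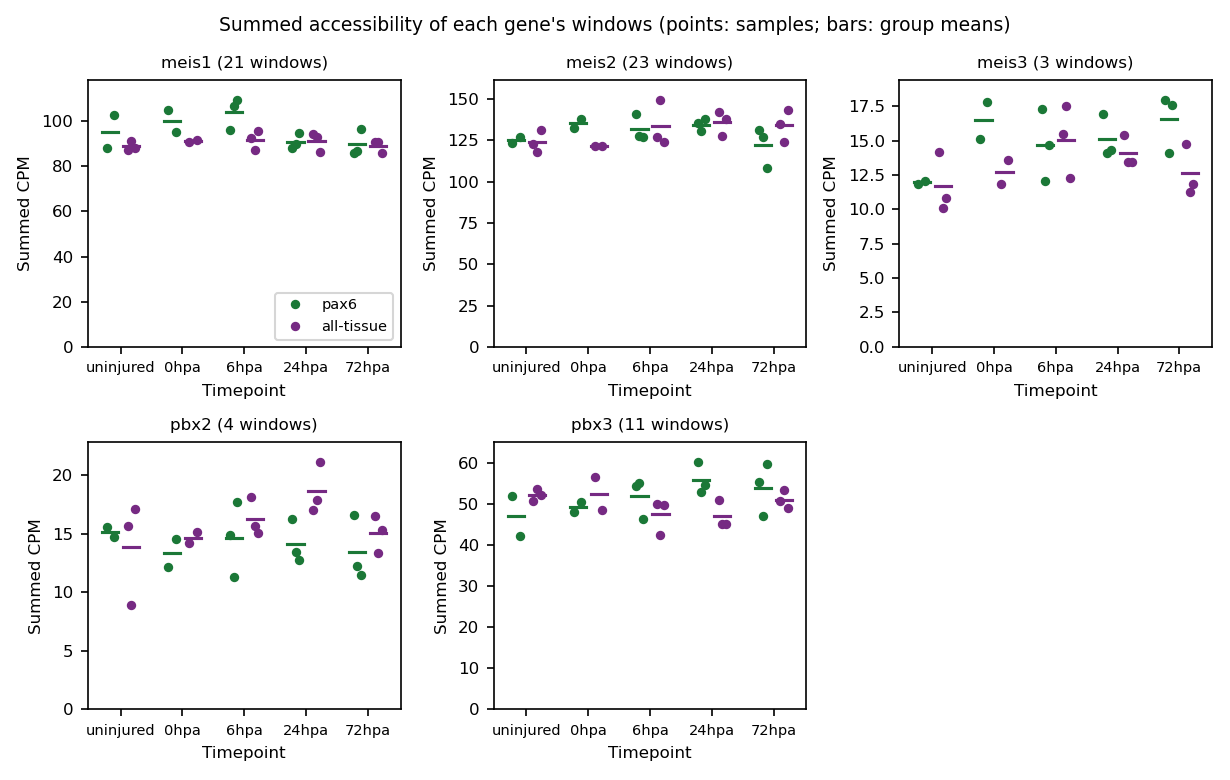
Summed CPM (y axis) of all windows of each gene in every sample, by timepoint. Points are samples, bars are group means, pax6 is green and all-tissue purple. The meis1 group means run from 88.9 to 104 CPM and the meis2 means from 122 to 136 CPM, and no gene differed between tissues or timepoints at the adjusted threshold.

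For meis2 the sums were 129.8 ± 8.34 CPM in pax6 (SD, n = 13; lowest 108, highest 141) and 130.4 ± 9.68 CPM in all-tissue samples (SD, n = 14; lowest 118, highest 149.5), with a log2 fold change of −0.01 (−0.08 to 0.07, adjusted p = 0.954). Its 10 group means ran from 122 CPM in all-tissue 0hpa to 136 CPM in all-tissue 24hpa, a ratio of 1.12, and no neighbours differed beyond the larger SD. For pbx3 they were 52.2 ± 5.24 CPM in pax6 (lowest 42.3, highest 60.2) and 49.9 ± 3.69 CPM in all-tissue samples (lowest 42.6, highest 56.5), with a log2 fold change of 0.07 (−0.02 to 0.17, adjusted p = 0.4245) that was 0.12 with the 23 libraries (adjusted p = 0.1116). The pbx3 order began with pax6 24hpa (55.9 ± 3.84) and 72hpa (54.0 ± 6.42) and ended with pax6 uninjured (47.1 ± 6.88) and all-tissue 24hpa (47.1 ± 3.31), again with no neighbours apart by more than the larger SD.

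The sums of meis3 and pbx2 rest on 3 and 4 windows. For meis3 they were 15.1 ± 2.27 CPM in pax6 (lowest 11.9, highest 18.0) and 13.3 ± 2.06 CPM in all-tissue samples (lowest 10.1, highest 17.5), with a log2 fold change of 0.18 (0.02 to 0.35, adjusted p = 0.224). The order ran from pax6 72hpa (16.6 ± 2.15) and 0hpa (16.5 ± 1.89) to pax6 uninjured (12.0 ± 0.137) and all-tissue uninjured (11.7 ± 2.17). Of the 9 pairs of neighbours, only all-tissue 24hpa and 0hpa (14.1 ± 1.12 and 12.7 ± 1.22) had means apart by more than the larger SD. Their samples overlapped, with a lowest 24hpa value of 13.46 and a highest 0hpa value of 13.57 CPM. For pbx2 the sums were 14.1 ± 2.06 CPM in pax6 (lowest 11.3, highest 17.7) and 15.8 ± 2.76 CPM in all-tissue samples (lowest 8.90, highest 21.1), with a log2 fold change of −0.16 (−0.33 to 0.0081, adjusted p = 0.298). The highest pbx2 group mean was that of all-tissue 24hpa (18.6 ± 2.18), above all-tissue 6hpa (16.3 ± 1.65) by more than the larger SD. The samples of these groups overlapped, with a lowest 24hpa value of 17.0 and a highest 6hpa value of 18.2 CPM. The lowest group mean was that of pax6 0hpa (13.4 ± 1.69).

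The members' sums did not move as one over the samples. As a description over the 27 samples, which differ in depth and in the share of counts near start sites, Pearson's r of the summed log2 CPM between member genes ran from −0.36 (pbx2 and pbx3) to 0.42 (meis2 and pbx2), and was −0.09 for meis1 and pbx3. Among up to 2929 genes with at least 10 windows, the 3 most like each member in this measure included dmrt2 for meis1 (r = 0.75), haao (0.62), fosl2-like (0.62) and bcl11a (0.61) for meis2, en2 for meis3 (0.60), fosl2-like for pbx2 (0.61), and cd44 (0.74) and kif26a-like (0.67) for pbx3. The remaining ones carry only identifiers in the annotation. Likeness of such sums says nothing of shared function or control.

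Of 16 other genes of the pathway (the remaining TALE homeobox genes, a Pbx-interacting protein, and etv1 and runx2, which the study considered together with the members), 13 had windows, 156 in all. No window carried the names pbx4, pknox1 or pbxip1, the Pbx-interacting protein, so these were not tested. At an unadjusted p under 0.05 there were 0 of the 13 between the tissues, against 18.5% of all genes. Over time these were pknox2 in pax6 samples (unadjusted p = 0.01163 in edgeR) and tgif1 in all-tissue samples (0.01983). The shares of all genes over time were 8.7% and 11.2%. None of the 13 sums was called by edgeR in the tissue comparison, over time in either tissue, or in the difference of time course. Of their 156 windows, 2 were called in the tissue comparison, where 1.52% of all windows were, and 11 (7.05%) had an unadjusted p under 0.05, against 14.5% of all windows, so these counts do not stand above the background. The 2 lay at the start sites of irx2 and irx3, Iroquois genes that pattern the neural tube, and were lower in pax6 samples. The window 5 bp upstream of the irx2 TSS (chromosome 6, 36747881 to 36748280) averaged 4.92 ± 1.27 CPM over the 13 pax6 samples (SD) and 7.30 ± 2.19 CPM over the 14 all-tissue samples (SD), with −0.58 as its log2 fold change (adjusted p = 0.02113). The window 199 bp downstream of the irx3 TSS (chromosome 4, 44510188 to 44510587) averaged 4.36 ± 1.56 CPM and 6.26 ± 1.32 CPM in the same samples, with −0.51 as its log2 fold change (adjusted p = 0.03381). Over all samples the pax6 and all-tissue values of both windows overlapped. The same 2 of 156 windows were called at 72 hpa, where 0.363% of all windows were, and 11 (7.05%) had an unadjusted p under 0.05, against 11.3% of all windows. At 72 hpa irx2 had 5.65, 5.17 and 1.58 CPM in pax6 against 9.58, 7.10 and 11.5 CPM in all-tissue samples (−1.14, adjusted p = 0.027), and irx3 had 4.45, 4.61 and 1.58 CPM against 7.17, 8.50 and 7.39 CPM (−1.05, adjusted p = 0.037). The lowest of these values was that of pax6 72hpa replicate 3 at both genes, one of the samples that stood apart. No pax6 value overlapped an all-tissue value at this timepoint, with only 3 samples in each group. The irx2 and irx3 windows were examined in the main setting only, so whether their calls hold without that sample or in DESeq2 was not tested. In uninjured tails irx3 had 5.01 and 8.19 CPM in pax6 against 6.07, 5.68 and 5.76 CPM in all-tissue samples, which overlapped.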

How the data were processed

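The deposited table holds raw counts of ATAC-Seq fragments in 400 bp windows around merged peak summits. According to the study's methods, the authors used Trim Galore for trimming, Bowtie2 for alignment to Xenopus tropicalis genome version 9.0, MACS2 for peaks and featureCounts for counting. The deposited summit score is the −log10 of MACS2's q-value, and the deposited distance runs from the window to the nearest TSS. The authors' columns of fold changes and p-values were not used. Of 31 libraries, 2 with under 100000 counts were left out and 2 second libraries were summed with their sample, which gave 27 samples.

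Windows reaching 1 CPM in 2 or more samples were fitted together in edgeR 4.0.16 (R 4.3.3) with TMM factors and robust quasi-likelihood tests. P-values were adjusted by Benjamini-Hochberg over all windows, or over all genes for sums, at a threshold of 0.05. The tissue comparison used 2 groups, and the other tests used 10. Windows named are, for each gene, the nearest to the TSS and the highest, and, where a comparison called none, that with the smallest p. Alternatives were RLE factors, other filters, other library sets, a replicate block, DESeq2 1.42.0, other thresholds and models, and leaving out each sample. The scripts were tested on simulated data. The members and lists were chosen with earlier results of these data known. Figures were drawn with matplotlib 3.10.9.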

Additional observations from a re-analysis of the deposited data

How the results depend on the processing

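DESeq2 gave no adjusted p for 2 of the windows with the smallest p in the time tests, as given above, and could not call them there. RLE factors, both other filters, DESeq2 and the other fits run called no member window or sum, with the following exceptions. In the tissue comparison 1 window was called with the 23 libraries, 3 had an unadjusted p under 0.01, and leaving out 1 sample gave 0 to 2 calls, the 2 without all-tissue 0hpa replicate 1. The 23 libraries lack that sample too. Within timepoints leaving out 1 sample gave 0 to 1, the 1 without pax6 uninjured replicate 1, where the lone pax6 sample left is assumed to vary like the other groups. Over time in pax6 samples 1 window had an unadjusted p under 0.01. The shares of all windows at these settings and thresholds are not given here, so these counts have no background to be set against. The near-zero tissue difference of the meis2 window 155764 bp upstream turned to 0.0086 with the 23 libraries and to 0.016 without the 2 samples of lowest correlation, a setting chosen after seeing the data, and ran from −0.0481 to 0.0234 when 1 sample was left out (0.0107 without pax6 72hpa replicate 2, 0.0234 without all-tissue 6hpa replicate 2, 0.00256 without all-tissue 72hpa replicate 3). The meis2 sum turned likewise to 0.0148 and 0.0167, and ran from −0.0169 to 0.0128 (0.0128 without pax6 72hpa replicate 3, and 0.0104, 0.00274 and 0.00499 without all-tissue 6hpa replicate 2, 24hpa replicate 1 and 72hpa replicate 3). The meis1 sum turned to −0.0646 with windows within 50000 bp only. The cause was not tested.

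The labels number the replicates alike in both tissues. Deviations of same-numbered samples from their group means had r from −0.096 to 0.074 (0 of 12 pairs over 0.1). Their median r was 0.015, against −0.0055 in 25 pairs of different number. With 2 or 3 samples in a group, these values cannot decide whether the numbers pair the samples. With a replicate block 0 member windows were called in the tissue comparison, 8 had an unadjusted p under 0.05, and no other call changed. The share of all windows with this block is not given here. Counts per window, with a median of 28, limit what single windows can show.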
